A study of Plutella xylostella with 6 samples.

Results

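Shematrin-like and glycine-rich structural protein genes of the diamondback moth Plutella xylostella were examined in whole larvae exposed to the plant volatile DMNT. The members are 4 of the 21946 rows of the expression table, found by gene symbol. LOC105392910 and LOC105398079 are both annotated as shematrin-like protein 2, LOC105398081 as glycine-rich protein 3-like and LOC105392918 as glycine-rich cell wall structural protein 1.8-like. They were chosen because their levels were lower in DMNT larvae, so the DMNT difference of these 4 loci is given below as a description with no test. DMNT is a homoterpene that plants release under insect attack, and the study asked how it harms larvae of this leaf-feeding pest.

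Whole bodies of second-instar larvae were the source of RNA, with 3 DMNT libraries (12 hr of treatment) and 3 Control libraries of the same stage. The labels give no strain, dose or number of larvae for a library. The study's methods set 1 standard DMNT dose in forage for its feeding assays, with paraffin oil, the solvent, as control, and do not restate either for the sequenced larvae. Total counts ran between 39853422 and 54671573 in DMNT libraries and between 49553028 and 56381123 in Control libraries. Between any pair of the 6 libraries the counts differed by far more than sampling noise. In whole bodies, fewer cells of a type and less RNA per cell cannot be told apart.

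Structural proteins built from short repeats rich in glycine form stiff or elastic materials outside cells. In insects such proteins are known from the cuticle, the exoskeleton that epidermal cells secrete and renew at each moult, from the eggshell and from silk. The names in the annotation come from similarity to proteins of other organisms. Shematrins are shell matrix proteins of pearl oysters, glycine-rich cell wall proteins are known from plants, and keratin-associated proteins, a name carried by the loci next to the members, belong to mammalian hair. Which tissue makes these proteins in P. xylostella is not stated in the labels or the annotation.

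Each member was lower in DMNT larvae, by 3.54 times (LOC105392910), 3.26 times (LOC105398079), 3.37 times (LOC105398081) and 2.63 times (LOC105392918), and no DMNT library reached a Control library at any of them. LOC105392910, one of the shematrin-like loci, had 5.13, 20.0 and 7.43 CPM in DMNT libraries 1 to 3, against 38.2, 25.4 and 51.7 CPM in Control libraries 1 to 3. CPM is the usual count scaled to the size of the library, here after adjusting sizes by the trimmed mean of M-values (TMM). The second shematrin-like locus, LOC105398079, had 6.14, 16.5 and 7.85 CPM in DMNT libraries and 37.8, 18.5 and 43.1 CPM in Control libraries. The groups did not overlap at either locus, with all DMNT libraries below all Control libraries as in 4.12% of all genes tested, and the order of the 6 libraries was the same at both, with Control 3 highest and DMNT 1 lowest. The gap between the groups was narrow at its closest point: Control 2, the lowest control, was 1.27 times DMNT 2 at LOC105392910 and 1.12 times at LOC105398079.

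The glycine-rich protein 3-like locus LOC105398081 had 2.66, 6.93 and 2.50 CPM in DMNT libraries, against 23.2, 9.35 and 8.38 CPM in Control libraries. Control 1 stood well above the other 2 controls at this locus. LOC105392918, the cell wall structural protein 1.8-like locus, had 1.37, 2.83 and 1.49 CPM in DMNT libraries and 6.24, 4.38 and 4.40 CPM in Control libraries. Here too no DMNT library reached a Control library, and the lowest control was 1.55 times the highest DMNT library. DMNT 2 was the highest of the DMNT libraries at each of the 4 loci. The counts behind these values lay between 57 (LOC105392918 in DMNT 3) and 2653 (LOC105392910 in Control 3).

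The members also differed in how far the libraries of a group were spread. Among DMNT libraries the highest level was 3.89 times the lowest at LOC105392910, 2.68 times at LOC105398079, 2.77 times at LOC105398081 and 2.06 times at LOC105392918. Among Control libraries the same ratios were 2.04, 2.33, 2.77 and 1.42. LOC105392918, with the lowest counts, thus had the least spread in both groups and also the widest gap between them.

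**Figure D1:**
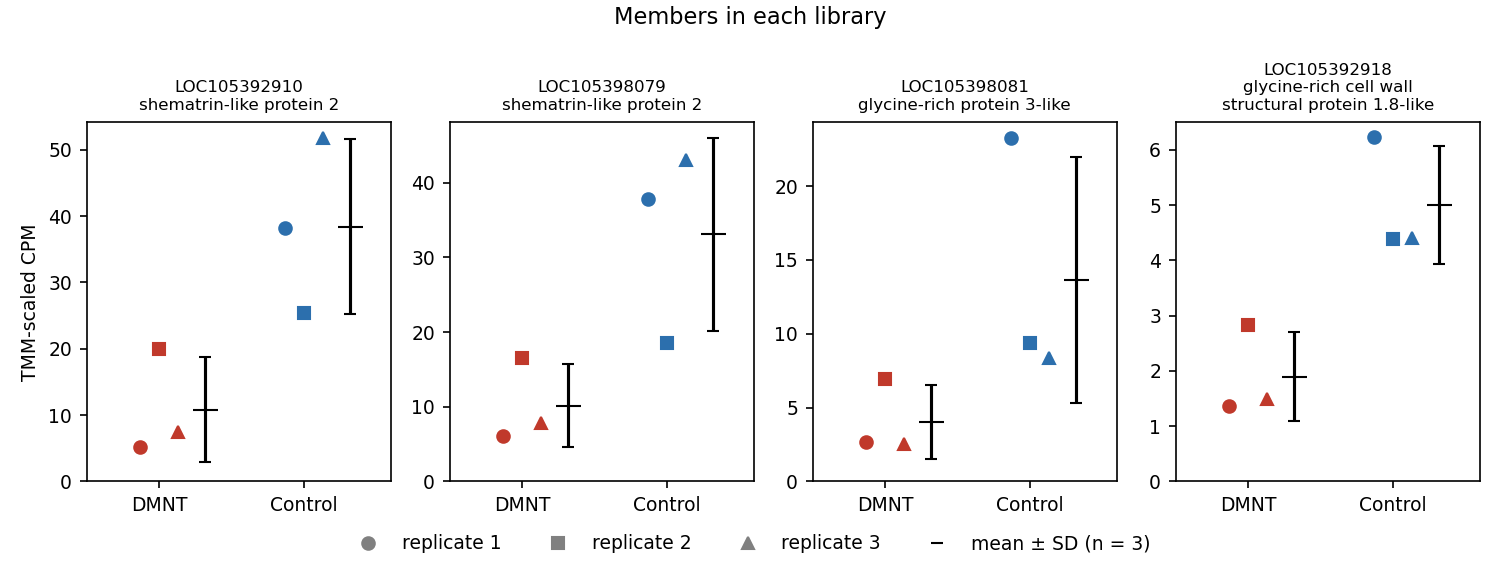
TMM-scaled CPM of the 4 members (linear axes that differ by panel and start at 0) in the 3 DMNT and 3 Control libraries, with each point a library and the black marks giving group means with their SD. At every member the 3 DMNT points lie below the 3 Control points, and DMNT 2 lies nearest to them.

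As group means, LOC105392910 stood at 10.8 ± 7.98 CPM in DMNT larvae and 38.4 ± 13.2 CPM in Control larvae (SD, n = 3 each). Its log2 fold change, DMNT over Control, was -1.82 (SE, standard error, 0.50). LOC105398079 averaged 10.2 ± 5.54 CPM in DMNT larvae and 33.1 ± 12.9 CPM in Control larvae, a log2 fold change of -1.70 (SE 0.43). The differences of the 2 shematrin-like loci lay within 1 SE of each other. LOC105398081 averaged 4.03 ± 2.51 CPM in DMNT larvae and 13.7 ± 8.31 CPM in Control larvae, with a log2 fold change of -1.75 (SE 0.52). LOC105392918 averaged 1.90 ± 0.81 CPM in DMNT larvae and 5.01 ± 1.07 CPM in Control larvae, with a log2 fold change of -1.39 (SE 0.33). The size of the difference depended on single libraries. Without DMNT 2 it was -2.61 for LOC105392910, -2.24 for LOC105398079, -2.40 for LOC105398081 and -1.80 for LOC105392918. Without Control 1, the difference for LOC105398081 shrank to -1.13.

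Of the 17709 genes tested with edgeR, 89 were called lower in DMNT larvae (0.503%) and 65 higher (0.367%), where a call needed a log2 fold change of 1 or more, up or down, and p under 0.05 before adjustment. Only 2 genes of the whole table had an adjusted p under 0.05, while 3.43% had an unadjusted p under 0.05 with edgeR and 4.13% with DESeq2, in either direction. All 4 members passed the filter on low values, and all 4 are among the 89. Since the members were chosen on this contrast, nothing is read from their share here or from their lack of overlap.

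The members differed in their level relative to each other within a library, a measure the choice did not use. FPKM values, which are scaled to the length of the transcript as well as to the depth of the library, allow levels of different genes to be compared per length. LOC105392910 had 11.6, 46.0 and 16.4 FPKM in DMNT libraries and 89.7, 62.5 and 114.6 FPKM in Control libraries. Its mean FPKM over the 6 libraries ranked above 94.3% of the rows of the table, against 93.6% for LOC105398079, 81.3% for LOC105398081 and 70.0% for LOC105392918. The shematrin-like LOC105398079 had 13.7, 37.4 and 17.1 FPKM in DMNT libraries and 87.2, 44.9 and 94.0 FPKM in Control libraries. The levels of both shematrin-like loci were close in every library, with a mean log2 ratio of LOC105392910 over LOC105398079 of 0.14 ± 0.27 (SD, n = 6 libraries), above 0 in 4 of 6 libraries (exact sign-flip permutation test, two-sided, p = 0.25, adjusted p = 0.25 over the 6 pairs of members).

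LOC105398081 had 4.05, 10.7 and 3.70 FPKM in DMNT libraries and 36.6, 15.5 and 12.5 FPKM in Control libraries. LOC105392918 had 2.90, 6.04 and 3.05 FPKM in DMNT libraries and 13.6, 9.98 and 9.06 FPKM in Control libraries. Both glycine-rich loci were below both shematrin-like loci in each library. The level of LOC105392910 was 6.65 times that of LOC105392918, a mean log2 ratio of 2.73 ± 0.55. LOC105398081 was above LOC105392918 by a mean log2 ratio of 0.69 ± 0.41, the smaller of these steps. These ratios, and the other 3 between a shematrin-like and a glycine-rich locus (mean log2 ratios of 2.05, 1.91 and 2.60), were above 0 in 6 of 6 libraries, each with an exact sign-flip permutation p = 0.03125, the smallest that 6 libraries allow, and an adjusted p = 0.0375. In these values the order per length was shematrin-like above glycine-rich 3-like above glycine-rich 1.8-like, with no difference past the threshold between the 2 shematrin-like loci. The ratio between the 2 glycine-rich loci, like that between the 2 shematrin-like loci, compares corresponding loci of the 2 blocks set out below. How reads that match both were counted is not stated, so these 2 ratios are uncertain.

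**Figure D2:**
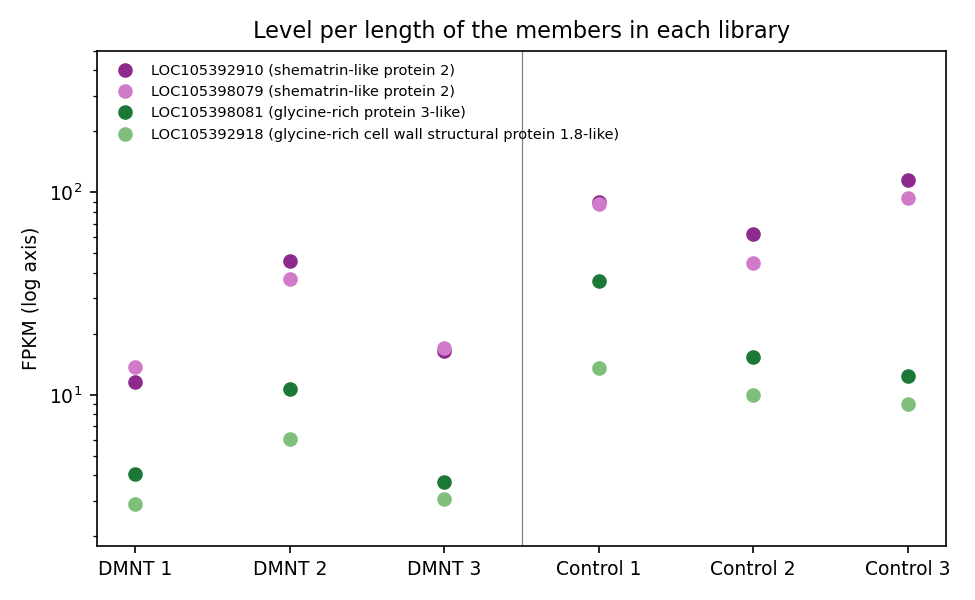
FPKM of each member (log axis) in each of the 6 libraries, DMNT libraries left of Control libraries. The 2 shematrin-like loci, with group means of 24.7 and 22.7 FPKM in DMNT larvae and 89.0 and 75.3 FPKM in Control larvae, run close together and lie above LOC105398081 and LOC105392918 in each library.

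The 4 loci formed 2 pairs by their pattern among libraries. With the group means removed, Pearson's r of log2 CPM over the 6 libraries was 0.954 between the shematrin-like loci and 0.951 between the glycine-rich loci, and 0.574 to 0.776 between a shematrin-like and a glycine-rich locus. These values describe 6 libraries that the loci share. Each of these pairs joins corresponding loci of the 2 blocks set out below. How reads that match both were counted is not stated, so levels within a pair may not be independent and nothing is concluded from their likeness. In the Control group the shematrin-like loci were highest in Control 3, and the glycine-rich loci in Control 1.

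The members also lie next to each other in the genome used by the authors. The running numbers of the assembled loci put LOC105398079 at 1911 and LOC105398081 at 1912 (the first block), and LOC105392918 at 13080 and LOC105392910 at 13081 (the second block). Each pair is flanked by the same 3 kinds of gene. Beside the glycine-rich locus lies a keratin-associated protein 19-2-like gene (LOC105398083 and LOC105392908), and beyond the shematrin-like locus lie an eEF1 epsilon-1-like gene, related to translation elongation factors, and a gene for a probable RNA-binding protein, CG14230. The order runs in opposite directions in the 2 blocks. Of the 17111 symbols in the expression table of the form LOC and a number, 10361 have an entry in a newer RefSeq annotation (ilPluXylo3.1). Among the 4 members, 2 have an entry, LOC105398079 and LOC105398081. They lie there in such a run, made of symbols from both blocks. Symbols were looked up in the whole annotation, but the order of genes was read only around these 2 members. Whether the annotation holds another such run is therefore not known. Whether the blocks are separate loci or copies of one locus in the older assembly was not tested, and how reads that match both were counted is not stated by the authors' methods, so the values of the 2 pairs are uncertain as separate measurements. With both shematrin-like loci summed, the levels were 11.3, 36.4 and 15.3 CPM in DMNT libraries and 76.0, 43.9 and 94.8 CPM in Control libraries, a log2 fold change of -1.77 (SE 0.46). With both glycine-rich loci summed, they were 4.04, 9.76 and 3.99 CPM in DMNT libraries and 29.5, 13.7 and 12.8 CPM in Control libraries, a log2 fold change of -1.65 (SE 0.45).

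Of the 20 loci within 5 running numbers of a member, 17 were tested and 0 were called by edgeR in either direction, against 0.503% called lower over all genes. Among the 17, 1 had an unadjusted p under 0.05 with edgeR (3.43% over all genes) and 2 did with DESeq2 (4.13% over all genes), which called 1, while limma called 0. The median log2 fold change of the 17 was -0.08, between -1.14 and 0.32, against a median near 0 over all genes. The lowest 2 of the 17 were the keratin-associated protein 19-2-like loci directly beside the members. LOC105398083 had 44.5, 28.0 and 16.8 CPM in DMNT libraries and 98.9, 77.6 and 20.1 CPM in Control libraries, a log2 fold change of -1.14 (SE 0.56, edgeR adjusted p = 0.9999, and above 0.05 unadjusted). LOC105392908 had 13.5, 8.72 and 3.62 CPM in DMNT libraries and 23.5, 20.2 and 9.49 CPM in Control libraries, a log2 fold change of -1.04 (SE 0.49, edgeR adjusted p = 0.9999, and above 0.05 unadjusted). At both loci the groups overlapped, library 3 was the lowest of its group and library 1 the highest. The call at LOC105392908 depended on the fit. It was called lower with replicate numbers as a block, at -1.13 (edgeR adjusted p = 0.911), and by DESeq2, at -1.04 (adjusted p = 0.9998). In the block fit LOC105398083 was at -0.97 (SE 0.25, edgeR adjusted p = 0.911), under 0.05 before adjustment but short of the fold threshold. Without Control 3, edgeR called both loci lower, at -1.57 for LOC105398083 and -1.34 for LOC105392908, and likewise without DMNT 1, at -1.55 and -1.52.

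On the other side of the members, no locus passed the test. LOC105398077, the eEF1 epsilon-1-like gene of the first block, had a log2 fold change of -0.17 (SE 0.18), and its counterpart LOC105392911 one of 0.18 (SE 0.15). The RNA-binding protein genes LOC105398161 and LOC105392913 were at 0.00 (SE 0.18) and 0.09 (SE 0.17). The shematrin-like members that lie between them and the glycine-rich members were at -1.70 and -1.82, a contrast between loci that was not tested. LOC105398089, an uncharacterized gene beyond the keratin-associated protein locus of the first block, had 35.6, 44.0 and 34.0 CPM in DMNT libraries and 73.0, 55.7 and 67.3 CPM in Control libraries. Every DMNT library was below every Control library at LOC105398089, as in 4.12% of all genes tested. At a log2 fold change of -0.79 (SE 0.16, edgeR adjusted p = 0.9999) it was under the fold threshold. It was the locus of the 17 with an unadjusted p under 0.05. At LOC105392911 every DMNT library was above every Control library, as in 4.25% of all genes tested.

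**Figure D3:**
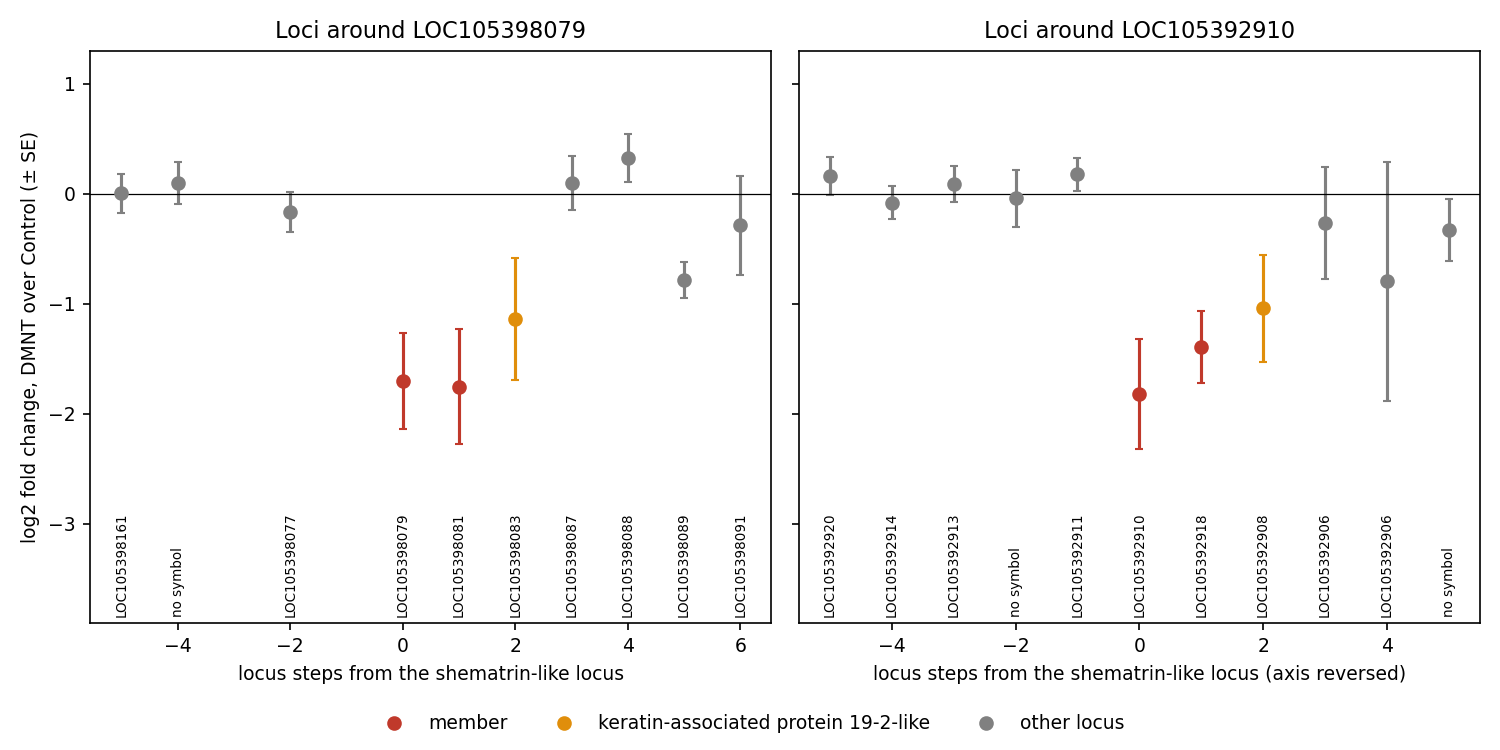
Log2 fold change (DMNT over Control, bars 1 standard error) of the members and of the tested loci within 5 running numbers of them, by position in each block, with members in red and keratin-associated protein 19-2-like loci in orange. The 2 members and the keratin-associated protein 19-2-like locus of each block lie between -1.04 and -1.82, while the eEF1 epsilon-1-like and RNA-binding protein loci lie between -0.17 and 0.18.

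Levels of corresponding genes in the 2 blocks differed by amounts that varied from gene to gene. As log2 ratio of FPKM, the second block over the first, the shematrin-like pair had a mean of 0.14 ± 0.27 (SD, n = 6 libraries) and the glycine-rich pair -0.69 ± 0.41. The keratin-associated protein pair had -1.81 ± 0.40, the eEF1 epsilon-1-like pair -0.89 ± 0.27 and the RNA-binding protein pair 0.54 ± 0.07. The ratio of the RNA-binding protein pair thus varied little among libraries, between 0.44 and 0.64, while that of the glycine-rich pair ran between -1.43 and -0.28. Counts lay between 1100 and 2389 in the RNA-binding protein pair and between 57 and 358 at LOC105392918. The part of counting noise in this contrast was not tested.

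**Figure D4:**
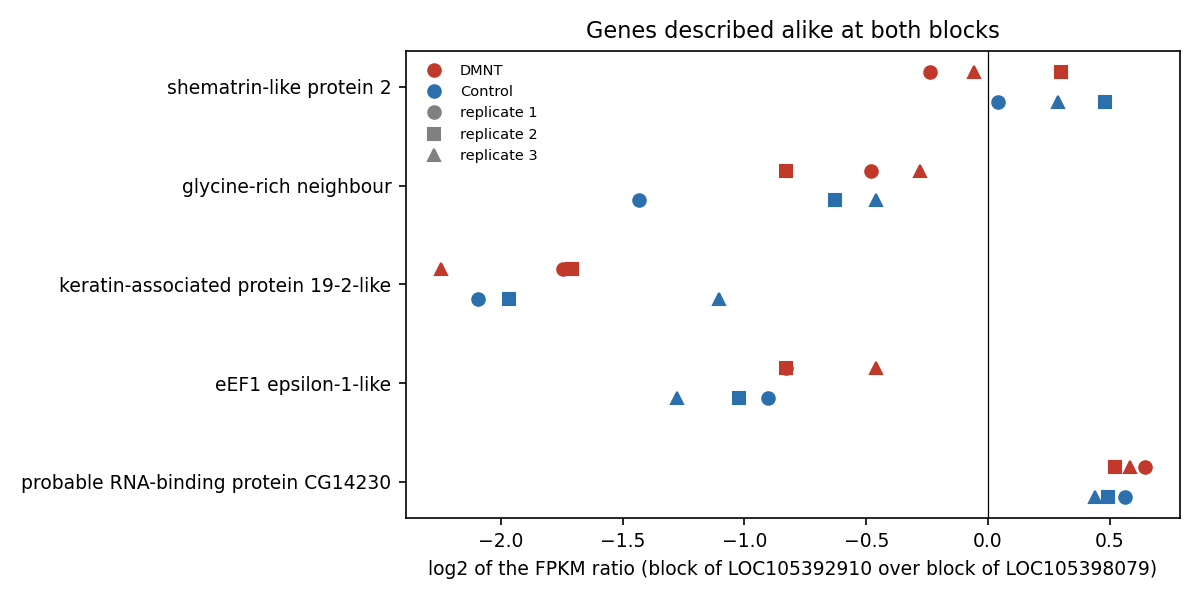
Log2 ratio of FPKM between corresponding genes of the 2 blocks (second over first) in each of the 6 libraries, with DMNT above Control within a gene and the marker shape giving the replicate number. Points of the RNA-binding protein pair lie between 0.44 and 0.64, and those of the keratin-associated protein pair between -2.25 and -1.10.

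Related genes were counted against the share called over all genes, 0.503% lower and 0.367% higher, at which a list of this size holds few or no calls. Of 8 further loci described as shematrin or glycine-rich, 6 were tested, with 0 called by edgeR in either direction, 0 with an unadjusted p under 0.05, and 0 called by DESeq2 or limma. Their median log2 fold change was -0.08. LOC105392502, described as the member LOC105392918 is, had a mean of 51.8 FPKM over the 6 libraries, above the group means of that member. It averaged 155.8 ± 26.2 CPM in DMNT larvae and 160.0 ± 34.0 CPM in Control larvae, with a log2 fold change of -0.04 (SE 0.19). LOC105389346, a shematrin-like protein 1 gene, averaged 4.32 ± 2.95 CPM in DMNT larvae and 3.19 ± 1.31 CPM in Control larvae, a log2 fold change of 0.44 (SE 0.50). LOC105381534 and LOC105382865 had log2 fold changes of -0.33 (SE 0.35) and -0.11 (SE 0.32), and the remaining 2 of the 6 had too few counts for a steady estimate.

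Among 55 loci for other repeat-rich structural proteins (prisilkin, keratin-associated, extensin, spidroin, proline-rich and similar names), 36 were tested and 0 were called by edgeR. Of these, 3 had an unadjusted p under 0.05 with edgeR and 5 with DESeq2, which called 1, against 3.43% and 4.13% over all genes, and limma called 0. With replicate numbers as a block, edgeR called 1 lower, LOC105392908. Their median was -0.05 on the log2 scale, with 20 below 0 and 16 above. The 2 keratin-associated protein loci beside the members and the prisilkin-39-like LOC105395063, at -1.08 (SE 0.64, edgeR adjusted p = 0.9999), were the lowest. Prisilkin-39 is a protein of pearl oyster shell that binds chitin. A second prisilkin-39-like locus, LOC105394999, had 15.7, 48.2 and 68.6 CPM in DMNT libraries and 71.2, 26.7 and 137.2 CPM in Control libraries, with overlapping groups. The third keratin-associated protein 19-2-like locus, LOC105380859, which lies elsewhere in the assembly, was at -0.30 (SE 0.46). In 1 of the 36, the extensin-like LOC105392922, every DMNT library was below every Control library, as in 4.12% of all genes tested. It averaged 3.96 ± 0.99 CPM in DMNT larvae and 5.88 ± 0.49 CPM in Control larvae. Its log2 fold change was -0.57 (SE 0.23, edgeR adjusted p = 0.9999), short of the fold threshold. In 2 of the 36 every DMNT library was above every Control library, a pattern found in 4.25% of all genes tested. LOC105395496, vegetative cell wall protein gp1-like, averaged 144.3 ± 34.2 CPM in DMNT larvae and 90.6 ± 6.75 CPM in Control larvae. LOC105382735, extensin-like, averaged 11.1 ± 0.53 CPM in DMNT larvae and 6.06 ± 1.69 CPM in Control larvae. Neither reached the fold threshold, with log2 fold changes of 0.67 and 0.87 (edgeR adjusted p = 0.9999 for both).

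Cuticle proteins bind chitin or cross-link in the exoskeleton. Of 117 such genes 102 were tested, with a median log2 fold change of -0.10. edgeR called 2 of the 102 lower (1.96%, against 0.503% of all genes) and 0 higher. At an unadjusted p under 0.05 stood 3 genes with edgeR and 6 with DESeq2, against 3.43% and 4.13% over all genes. DESeq2 called 4 lower and 0 higher. With limma, 3 were called lower and 1 higher at a pseudocount of 1, and 2 lower and 3 higher at a pseudocount of 0.1. The 2 called by edgeR were both larval/pupal rigid cuticle protein 66-like genes with adjacent symbols. LOC105389378 had 0.26, 0.75 and 1.15 CPM in DMNT libraries and 5.07, 0.64 and 5.96 CPM in Control libraries, a log2 fold change of -2.45 (SE 0.81, edgeR adjusted p = 0.9999). LOC105389379 had 0.09, 1.54 and 2.09 CPM in DMNT libraries and 6.33, 2.49 and 9.49 CPM in Control libraries, a log2 fold change of -2.31 (SE 0.85, edgeR adjusted p = 0.9999). Neither call held with each library left out in turn, as the p threshold was then missed, with edgeR unadjusted p between 0.051 and 0.086. The log2 fold changes stayed past the fold threshold. LOC105389378 lost its call without DMNT 1 (-2.05) or Control 3 (-2.0), and LOC105389379 without DMNT 2 (-2.51), Control 1 (-2.28) or Control 3 (-1.84). The cuticle gene with the highest mean FPKM, LCP-17-like LOC105393786, had 464.3, 1061 and 1269 CPM in DMNT libraries and 1410, 577.2 and 2022 CPM in Control libraries, and the groups overlapped.

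Genes of silk and moulting were read against the same shares of 0.503% and 0.367%, at which lists this short hold few or no calls. The 6 silk genes, fibroins and sericin among the names searched, were all tested, with 0 called by edgeR, DESeq2 or limma, 0 at an unadjusted p under 0.05 and a median log2 fold change of 0.00. Fibroin heavy chain-like LOC105392941, the core protein of the silk thread, averaged 2111 ± 360 CPM in DMNT larvae and 1785 ± 226 CPM in Control larvae. Of 31 moulting genes (ecdysone response and chitinases among them) 28 were tested, with 0 called by edgeR, DESeq2 or limma and a median of -0.04. A single one had an unadjusted p under 0.05 by edgeR (3.43% over all genes), endochitinase LOC105389028, an enzyme of the kind that digests old cuticle, at 125.6 ± 27.5 CPM in DMNT larvae and 186.6 ± 56.4 CPM in Control larvae (log2 fold change -0.57, SE 0.24, edgeR adjusted p = 0.9999).

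**Figure D5:**
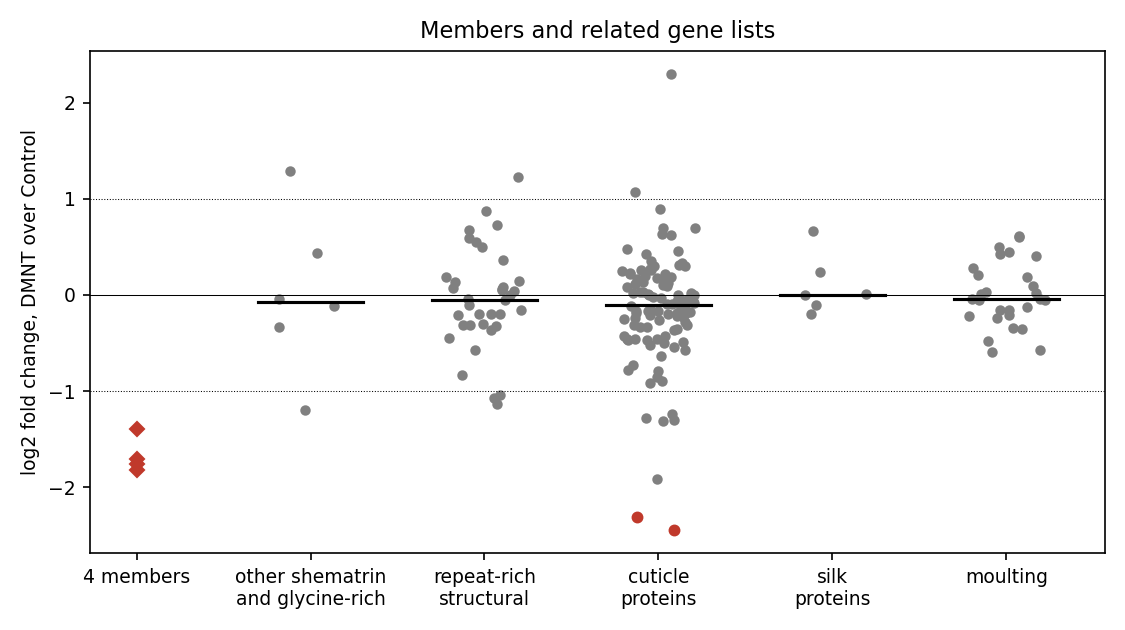
Log2 fold change (DMNT over Control) of each tested gene in the lists of related genes, with a black line at each list's median, dotted lines at the fold threshold and called genes in red (members as diamonds). The 4 members lie between -1.39 and -1.82, and the medians of the other lists lie between -0.10 and 0.00.

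Marker sums of the tissues a whole larva holds were compared beside these values. In this paragraph CPM is scaled to the library total without the TMM adjustment, so the sums are not on the scale of the members' values. Whether the groups overlap in these sums after that adjustment was not examined. The summed level of 110 epidermis markers, mostly cuticle proteins, was 7355, 13091 and 13636 CPM in DMNT libraries and 13534, 10577 and 16428 CPM in Control libraries. Reads were present in every library for 98 of the 110 markers, and 2 were at 0 in all 6. DMNT 1 had the lowest epidermis sum, and the other 2 DMNT libraries lay within the range of the controls in this sum. Midgut sums were 25389 to 26772 CPM in DMNT larvae and 23381 to 26303 CPM in Control larvae. Fat body sums were 1610 to 11372 CPM in DMNT larvae and 3676 to 8935 CPM in Control larvae, again with overlap, and the muscle, silk gland and hemocyte sums overlapped too. The part of tissue make-up in the members' difference was not tested.

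The genes with the pattern most like the mean of the members over the 6 libraries, among 9293 described genes of at least 1 CPM, were mitochondrial ornithine transporter 1 LOC105397968 (Pearson's r = 0.988), alpha-tocopherol transfer protein-like LOC105381671 (0.984), synaptotagmin-7 LOC105381501 (0.978), phytanoyl-CoA dioxygenase domain-containing protein 1 LOC105381299 (0.973) and CDK5 regulatory subunit-associated protein 1-like LOC105395372 (0.97). Their own differences were smaller than those of the members, with LOC105381671, a lipid carrier homologue, at 7.02, 11.9 and 6.94 CPM in DMNT libraries and 15.5, 11.5 and 14.0 CPM in Control libraries. With group means removed, homeobox protein Nkx-2.1 LOC105381913 (0.995), trafficking protein particle complex subunit 12-like LOC105389698 (0.99), fumarylacetoacetase-like LOC105393085 (0.988), asteroid-like LOC105391419 (0.986) and again LOC105381671 (0.986) were closest. These values come from a search over all candidates with 6 libraries and are given as a description. No described locus of either block was among them. Loci called uncharacterized or without a description, LOC105398089 among them, were not candidates in this search.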

How the data were processed

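The deposited table held a count and an FPKM value per gene and library, which the authors made from reads trimmed with cutadapt, aligned with HISAT to a P. xylostella genome and assembled and quantified with StringTie, with edgeR for their own comparison (versions not given in the sources used). The libraries were made with dUTP, which marks strand; whether counting used it is not given. Of the rows, 2191 carried no gene symbol. Groups came from sample titles, and the columns named CK and Treated were taken as Control and DMNT.

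Counts were tested, where a gene's mean FPKM was 0.5 or more, with edgeR 4.0.16 (TMM, quasi-likelihood) in R 4.3.3, with Benjamini-Hochberg adjustment over 17709 genes. Log2 fold changes are DMNT over Control. Alternatives were DESeq2 1.42.0, limma 3.58.1 on log2(FPKM + 1) and log2(FPKM + 0.1), median-ratio scaling, no filter, a replicate block, and leaving out each library. The code was tested on simulated data. Deviations of same-numbered libraries from their group means correlated weakly (0.103, 0.102 and 0.195), and libraries of different number were not compared in this way. By the rule used the numbers pair the libraries, which the replicate block took in and the main fit did not. Nothing in the labels gives a shared batch. Nothing states that replicates came from separate cultures, so p-values measure the spread between these libraries.

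The members and gene lists were chosen with earlier results of these data known. The rule for named genes took the members, the tested genes of the shematrin, glycine-rich and repeat-rich lists, loci within 5 numbers of a member, the 5 genes most alike by each measure and, in other lists, called genes and the 2 with the highest mean FPKM; of these, the text names those a count or comparison turns on. Sums of both copies were added after seeing the data.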

Additional observations from a re-analysis of the deposited data

How the results depend on the processing

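The log2 fold changes of the 4 members stayed below 0 under each of the 6 other settings, between -2.06 and -1.29, and with each library left out, between -2.61 and -1.13. Counts of calls moved more. Without the filter, 147 genes were called lower over the whole table and 1 in the moulting list. With limma on log2(FPKM + 1), 22 genes were called higher over the whole table and 1 in the cuticle list, and with log2(FPKM + 0.1) 3 in the cuticle list. DESeq2 called 1 gene lower in the repeat-rich list, 4 in the cuticle list and 1 among the neighbouring loci. With Spearman's correlation 0 of the 5 genes most like the members over the 6 libraries kept their place. With group means removed 4 of the 5 did, where 19 genes were tied with or above the 5th place.

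With the replicate number as a block, which pairs the libraries, 101 genes were called lower and 77 higher over the whole table, 1 lower in the repeat-rich list, 2 higher in the cuticle list and 1 lower among the neighbouring loci. Among named genes it changed the call of LOC105392908 alone; LOC105398083 also passed its p threshold there, at -0.97, but not the fold threshold.

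Leaving out 1 library gave 79 to 167 lower and 61 to 128 higher genes over the whole table, 0 to 9 lower and 0 to 7 higher in the cuticle list, 0 to 2 higher in the moulting list, 0 to 2 lower among the neighbouring loci, 0 to 2 lower and 0 to 1 higher in the repeat-rich list, and 0 to 1 in each direction in the shematrin and glycine-rich list. The mean log2 ratios between members then ran from 2.55 to 2.88 for LOC105392910 over LOC105392918, 1.82 to 2.20 over LOC105398081 and 0.07 to 0.21 over LOC105398079, from 2.44 to 2.68 for LOC105398079 over LOC105392918 and 1.71 to 2.04 over LOC105398081, and from 0.54 to 0.77 for LOC105398081 over LOC105392918; 5 libraries cannot bring an exact p below 0.0625. The cause of these changes was not tested. Having 3 libraries per group and a spread of up to 3.89 times among DMNT libraries limits how finely the size of any difference can be given.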

Other observations

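LOC105394324, described as glycine-rich protein 2-like, had 40, 0 and 0 counts in DMNT libraries 1 to 3 and 57, 0 and 51 counts in Control libraries 1 to 3. Its reads were thus present in some libraries and absent from others within both groups. A count of 0 allows up to 0.0549 CPM in DMNT 2, 0.0753 CPM in DMNT 3 and 0.0605 CPM in Control 2, for counting error only. These 3 limits are without the TMM adjustment. With all 6 libraries its log2 fold change was -1.20 (standard error 1.65, edgeR adjusted p = 0.9999). Without DMNT 1 edgeR called it lower in DMNT larvae (adjusted p = 0.9999), the direction of the members, with both remaining DMNT libraries at 0, so that no fold is given. LOC105382109, another locus described as shematrin-like protein 2, had 28, 20 and 21 counts in DMNT libraries and 6, 27 and 0 counts in Control libraries. Without Control 2 edgeR called it higher in DMNT larvae, at a log2 fold change of 3.16 (adjusted p = 0.9994), opposite in direction to the 2 loci of the same description in the blocks. With all 6 libraries its log2 fold change was 1.29 (standard error 1.04, edgeR adjusted p = 0.9999).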
